A study of Thermochaetoides thermophila with 9 samples.

Results

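The hemicellulases of Chaetomium thermophilum examined here are 6 genes that the study of these libraries lists as xylan-degrading enzymes. They were taken by locus tag from the study's list, and all 6 are found among the 7785 genes of the count table. No threshold on a measured value was applied. The study had, however, named CTHT_0011440 and CTHT_0064690 among the genes most induced by xylose in these same libraries. The rise of these genes in xylose, and their places among all genes, are therefore not independent evidence. The xylosidases are CTHT_0011440, called XYL and annotated as a xylosidase-like protein, and CTHT_0064690, annotated as a xylan 1,4-beta-xylosidase. The xylanases are CTHT_0042130 and CTHT_0047500, annotated as endo-1,4-beta-xylanases, and CTHT_0039870 and CTHT_0050050, annotated as beta-xylanases. The annotation gives a signal peptide, which directs a protein into the secretory pathway, for every xylanase and for neither xylosidase.

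Xylan is the main hemicellulose of many plant cell walls and consists of a backbone of xylose units that carries side groups. Endoxylanases cut this backbone into shorter chains, and beta-xylosidases release single xylose units from the ends of those chains. In filamentous fungi such as Aspergillus and Trichoderma, genes of this kind are known to be transcribed when xylan or xylose is present and to be repressed by glucose.

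All cultures were wild type. After growth in complete medium at 50 °C, mycelia were kept for 48 h in SPY, a medium of salts, peptone and yeast extract to which no sugar is added, in order to deplete carbon stores (the methods give a shorter depletion than the labels, and a preculture in glucose-containing medium before it). They were then held for 6 h in SPY with 1% (w/v) D-xylose (xylose, 3 cultures), in SPY with 1% (w/v) D-glucose (glucose, 3 cultures) or in SPY without sugar (reference, 3 cultures). The labels call the cultures of a condition biological replicates. Poly(A) RNA of whole mycelium was sequenced, so a level is an average over all hyphae of a culture.

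The libraries held 38806913 to 52229013 reads assigned to genes, of which a single rRNA gene took 7.36% to 32.0%. Levels are given as CPM, the counts of a gene scaled to a common library size, after correction of library sizes by the trimmed mean of M-values (TMM). A gene without any read could still have had up to 3, equal to 0.0530 to 0.109 CPM depending on the library. Changes were tested by the quasi-likelihood method of edgeR, with p adjusted after Benjamini and Hochberg over the 6904 genes that passed a filter on low counts, in 1 model of the 3 conditions, and a gene is called higher or lower at an adjusted p below 0.05. Levels are compared for 1 gene between libraries and never between genes, because no gene lengths of the build used by the authors were at hand.

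Xylose raised 5 of the 6 hemicellulase transcripts over the reference, and the other, CTHT_0047500, was also called higher but had few reads and passed the filter only through libraries in which it is high. The summed level of the 6 genes was 729, 747 and 869 CPM in the xylose libraries, against 57.2, 88.9 and 41.4 CPM in the reference libraries. In glucose it was 46.1, 47.2 and 43.6 CPM, which lies within the range of the reference libraries. As a percentage of all counted reads, the 6 genes took 0.0753% to 0.0911% in xylose, against 0.00402% to 0.00846% in the reference. For each of the 5 genes, XYL, CTHT_0064690, CTHT_0042130, CTHT_0039870 and CTHT_0050050, the xylose libraries were all above the reference libraries. Calls were frequent in this comparison: 64.6% of the genes tested were called in either direction, 32.3% were called higher, 32.4% were called lower, and 33.2% had all xylose libraries above all reference libraries. The median log2-fold change was 3.92 over these 5 genes and -0.05 over all genes tested. Since whole mycelium was sampled, a larger number of transcribing cells and more transcript per cell cannot be told apart.

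**Figure D1:**
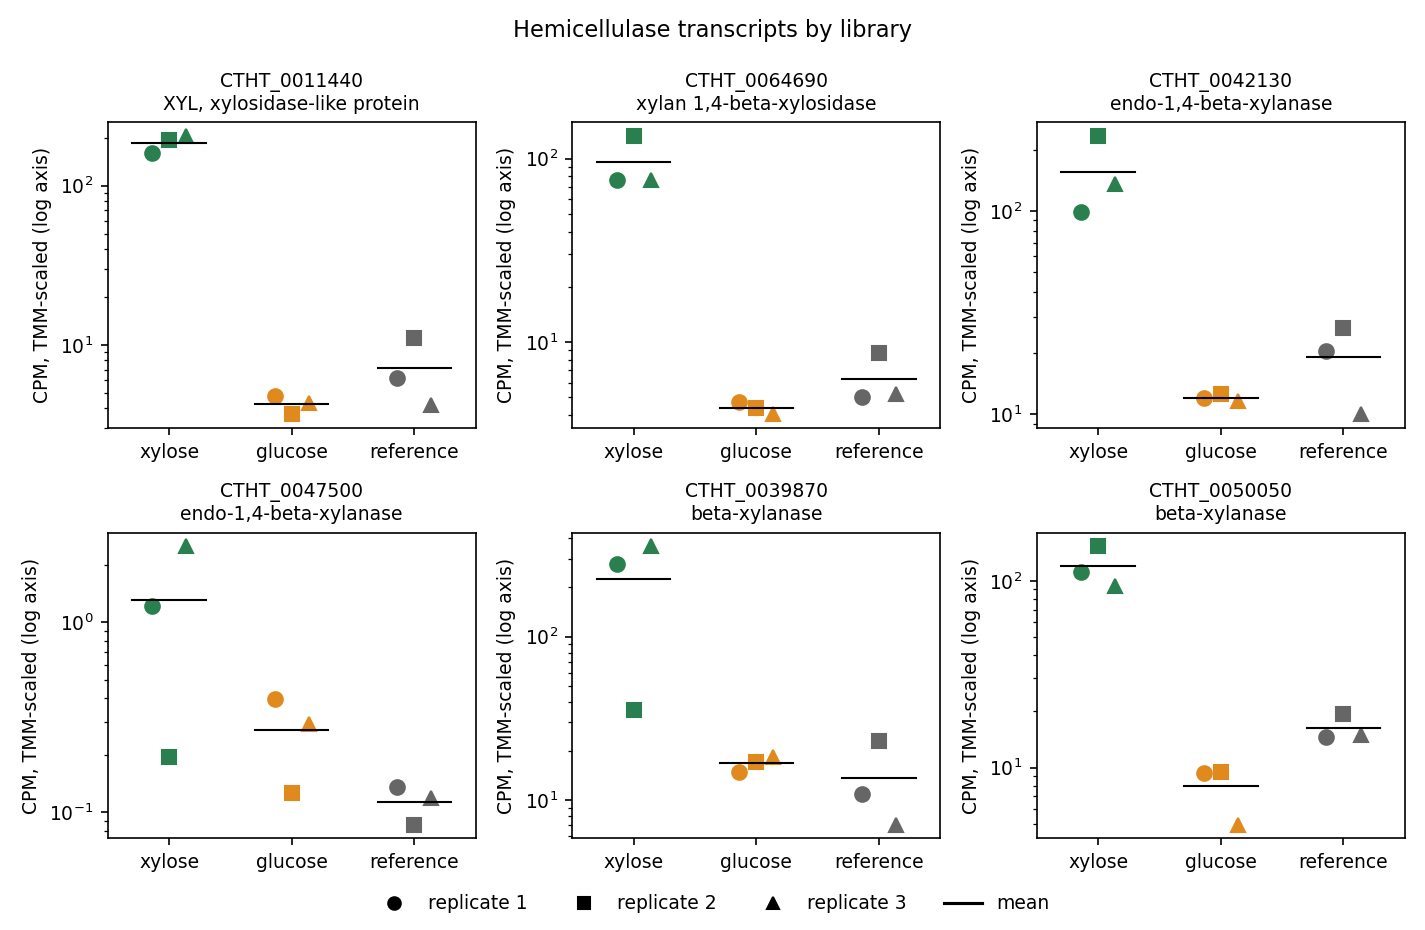
Level of each hemicellulase gene in every library, in TMM-scaled CPM on a log axis that differs between panels; columns are xylose, glucose and reference, symbols are replicates 1 to 3, and the black line is the mean of 3 libraries. For 5 genes the xylose libraries lie above all 6 others, whereas xylose replicate 2 of CTHT_0047500 (0.195 CPM) lies among the glucose libraries.

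The xylosidase XYL (CTHT_0011440) had the largest increase of the 6 genes and the closest xylose replicates. It was measured at 160, 193 and 204 CPM in xylose, against 6.15, 11.0 and 4.20 CPM in the reference. Its lowest xylose library was 14.5 times its highest library of the other conditions. The log2-fold change was 4.70 ± 0.37 (SE), which is a 26.0-fold increase with a 95% confidence interval of 14.8 to 45.9 (edgeR adjusted p = 5.08e-06). By size of the log2-fold change XYL took place 41 of the 6904 genes tested. CTHT_0064690, of an enzyme class that cleaves xylose from short xylan chains, was at 76.7, 132 and 76.5 CPM in xylose, against 5.05, 8.67 and 5.18 CPM in the reference. Here xylose replicate 2 was the highest library, and the groups lay apart by a factor of 8.83 between the lowest xylose library and the highest of the others. CTHT_0064690 increased 15.1-fold (95% interval 9.15 to 24.9, log2-fold change 3.92 ± 0.33, edgeR adjusted p = 6.19e-06).

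Of the xylanases, CTHT_0042130 and CTHT_0050050 had smaller fitted increases than the xylosidases, and their xylose libraries lay closer together than those of the other xylanases. The endoxylanase CTHT_0042130 was at 99.5, 234 and 136 CPM in xylose, against 20.4, 26.7 and 10.002 CPM in the reference. It increased 8.21-fold (95% interval 4.43 to 15.2, log2-fold change 3.04 ± 0.41, edgeR adjusted p = 7.89e-05). CTHT_0050050, a beta-xylanase, was at 112, 153 and 93.6 CPM in xylose, against 14.5, 19.4 and 14.8 CPM in the reference. Its increase of 7.34-fold was the smallest of the 6 (95% interval 4.54 to 11.9, log2-fold change 2.88 ± 0.32, edgeR adjusted p = 2.22e-05). The intervals of XYL and CTHT_0050050, which had the largest and the smallest increase of the 6, do not overlap. The same counts were also taken as XYL divided by CTHT_0050050 within each library. This ratio was 1.43, 1.26 and 2.18 in xylose, against 0.423, 0.568 and 0.283 in the reference. The change of this ratio between libraries does not depend on gene length or library size, although its size within a library does depend on the gene lengths. The ratios of the xylose libraries lay above all 6 others (0.511, 0.387 and 0.868 in glucose). Of the 15 pairs among the 6 genes, 5 had xylose ratios apart from the reference ratios.

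The other xylanases, CTHT_0039870 and CTHT_0047500, increased with a wide spread in which xylose replicate 2 was far below the other xylose libraries. The beta-xylanase CTHT_0039870 was at 280, 35.5 and 356 CPM in xylose, against 10.8, 22.998 and 7.09 CPM in the reference. Xylose replicate 2 thus held 0.127 and 0.0995 times the levels of replicates 1 and 3, yet was still 1.54 times the highest library of the other conditions. The gene increased 16.4-fold (95% interval 5.44 to 49.4, log2-fold change 4.04 ± 0.73, edgeR adjusted p = 0.000573). Without xylose replicate 2 its log2-fold change was 4.55, and without xylose replicate 3 it was 3.54.

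CTHT_0047500, the other endoxylanase, was read at low counts throughout. It had 69, 9 and 128 reads (1.22, 0.195 and 2.51 CPM) in xylose, against 7, 4 and 5 reads (0.136, 0.0861 and 0.119 CPM) in the reference. The exact 95% Poisson interval of the 9 reads of xylose replicate 2, which covers counting error only, is 4.12 to 17.1 reads, which includes the 7 and 5 reads of reference replicates 1 and 3. By CPM on library sizes without TMM correction, on which the filter works, the gene reached the required 0.218 in 3 libraries, namely xylose replicates 1 and 3 and glucose replicate 1. It was therefore tested on the strength of libraries in which it is high, and its call is given apart from those of the other 5 genes. The fitted increase was 11.3-fold (95% interval 3.19 to 39.8, log2-fold change 3.49 ± 0.83, edgeR adjusted p = 0.00328). Without xylose replicate 3 the log2-fold change was 2.63 and without replicate 2 it was 4.01, and both fits called the gene higher. Without any filter on low counts it was 3.58 (edgeR adjusted p = 0.00286). Fitted on the xylose and reference libraries alone, the gene did not pass the filter.

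**Figure D2:**
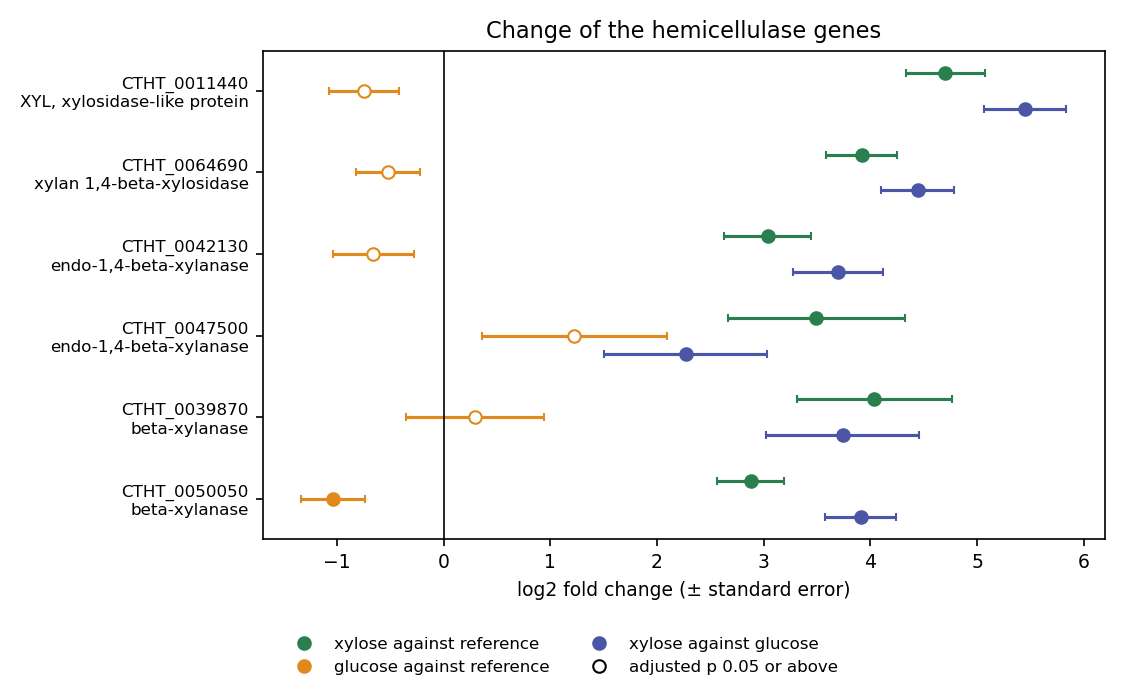
Log2-fold change of each hemicellulase gene in the 3 comparisons, with bars of 1 standard error; open symbols mark an adjusted p of 0.05 or above. Both comparisons of xylose lie between 2.88 and 5.45 for 5 genes. CTHT_0047500, at 3.49 and 2.27, passed the filter only through libraries in which it is high. The changes of glucose against the reference lie between -1.03 and 1.23 for all 6 genes, and only that of CTHT_0050050 is a filled symbol.

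Glucose left 5 of the 6 hemicellulase transcripts without a call relative to the reference. Only CTHT_0050050 was called, as lower, where 49.5% of the genes tested were called in either direction, 25.4% as lower and 24% as higher. It was at 9.34, 9.48 and 4.95 CPM in glucose, against 14.5, 19.4 and 14.8 CPM in the reference, and its groups did not overlap. The log2-fold change was -1.03 ± 0.30 (95% interval -1.69 to -0.38, edgeR adjusted p = 0.0150). The call rested on the replicates of glucose: without glucose replicate 3 the log2-fold change was -0.78 (edgeR adjusted p = 0.0541), and without glucose replicate 1 it was -0.95 (edgeR adjusted p = 0.0554).

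For the other 5 genes, glucose and the reference could not be told apart at the threshold on adjusted p. The intervals say how large a difference remains possible. They are per gene and not adjusted for the number of genes tested, so an interval can leave out 0 without a call. XYL was at 4.77, 3.67 and 4.29 CPM in glucose, and its log2-fold change was -0.75 (95% interval -1.47 to -0.03, edgeR adjusted p = 0.0783). CTHT_0064690 was at 4.70, 4.38 and 4.04 CPM in glucose, below all 3 reference libraries, as were 30.5% of the genes tested. Its log2-fold change was -0.52 (95% interval -1.18 to 0.13, edgeR adjusted p = 0.167). CTHT_0042130 was at 12.1, 12.6 and 11.6 CPM in glucose, inside the wider range of the reference, and its estimate on the log2 scale was -0.66 (95% interval -1.49 to 0.17, edgeR adjusted p = 0.171). Without reference replicate 3, the library with the lowest reference level of both genes, XYL and CTHT_0042130 were called lower in glucose, with log2-fold changes of -1.01 and -0.96 (edgeR adjusted p = 0.0226 and 0.0481). That library also had the highest share of reads on the rRNA gene (32.0%), and the part of this share in the result was not tested.

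The remaining xylanases had positive estimates with wide intervals in glucose. CTHT_0039870 was at 14.9, 17.0 and 18.4 CPM, all inside the range of the reference, and its estimate on the log2 scale was 0.30 (95% interval -1.12 to 1.71, edgeR adjusted p = 0.727). CTHT_0047500 had 21, 6 and 8 reads in glucose (0.393, 0.126 and 0.291 CPM), and its estimate on the log2 scale was 1.23 (95% interval -0.67 to 3.12, edgeR adjusted p = 0.260). In folds this interval runs from 0.628 to 8.71. The direction of calls over all genes depended on scaling in this comparison: 1659 genes were called higher and 1757 lower, but 2011 and 1414 when TMM was referred to xylose replicate 3, which shifted the median over all genes tested to 0.16 from -0.05 on the log2 scale.

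Set directly against glucose, xylose raised the same 5 genes, and CTHT_0047500 was called higher with overlapping groups. In this comparison 50.8% of the genes tested were called, 28.2% as higher and 22.6% as lower, and the xylose libraries used are the same as in the comparison with the reference. The direction of calls over all genes depended on scaling here too: 1944 were called higher and 1560 lower, but 1629 and 1792 when TMM was referred to xylose replicate 1. Over the whole table, 19.5% of the genes tested were called higher in xylose than in both other conditions, and these 5 hemicellulases were among them. XYL increased 43.7-fold (95% interval 24.2 to 78.8, log2-fold change 5.45 ± 0.39, edgeR adjusted p = 2.31e-05), which was place 2 among the 6904 genes tested. CTHT_0064690 followed at place 10 with 21.7-fold (95% interval 13.0 to 36.3, edgeR adjusted p = 3.15e-05). The beta-xylanase CTHT_0050050 stood at place 29 with 15.0-fold (95% interval 9.08 to 24.9, edgeR adjusted p = 3.83e-05), against place 550 in the comparison with the reference. CTHT_0039870 increased 13.4-fold (place 38, 95% interval 4.50 to 39.6, edgeR adjusted p = 0.00137) and CTHT_0042130 increased 12.9-fold (place 42, 95% interval 6.85 to 24.5, edgeR adjusted p = 7.97e-05).

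CTHT_0047500 was the exception among the comparisons with glucose. Its xylose and glucose libraries overlapped, because the 0.195 CPM of xylose replicate 2 lay below glucose replicates 1 and 3. The log2-fold change was 2.27 ± 0.77 (95% interval 0.59 to 3.95, edgeR adjusted p = 0.0284), at place 429, and without any filter on low counts it was 2.14 (edgeR adjusted p = 0.0376). The call was lost without xylose replicate 1 (2.16), without xylose replicate 3 (1.40) and without any 1 of the glucose replicates (2.56, 1.91 and 2.34 without replicates 1, 2 and 3), with edgeR adjusted p between 0.0542 and 0.157 in these fits. Without xylose replicate 2 the log2-fold change was 2.78 (edgeR adjusted p = 0.00211). For the other 5 genes, xylose libraries lay above all glucose libraries, as for 35.6% of the genes tested.

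The genes differed in how they varied among replicates, and the contrast was sharpest in xylose. XYL had an SD of 0.18 on the scale of log2(CPM + 0.5) over the xylose libraries, which is below the median of all genes tested (0.32). The SDs of the other xylosidase and of CTHT_0050050 and CTHT_0042130 were 0.45, 0.36 and 0.62. CTHT_0047500 had an SD of 1.07, and CTHT_0039870 had an SD of 1.82, which exceeded that of 99.6% of the genes tested. In glucose the SD of CTHT_0039870 was only 0.15, and the highest of the 6 was 0.50, for CTHT_0050050.

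Xylose replicate 2 moved the genes in opposite directions. It held the highest xylose level of CTHT_0064690, CTHT_0042130 and CTHT_0050050, and the lowest of CTHT_0039870 and CTHT_0047500. Among all genes tested, 165 (2.39%) had a level in this library, after adding 0.5 CPM, more than 3 times below that in both other xylose libraries, and 90 (1.30%) had one more than 3 times above. The counts of CTHT_0042130 divided by those of CTHT_0039870 were 6.59 in xylose replicate 2, against 0.355 and 0.382 in xylose replicates 1 and 3. In the other conditions this ratio ran from 0.629 to 0.812 in glucose and from 1.16 to 1.88 in the reference. So the proportion of these xylanase transcripts in xylose replicates 1 and 3 lay below that of every glucose and reference library, and in replicate 2 above all of them. CTHT_0039870 gave 38.4% and 41.0% of the reads of the 6 genes in xylose replicates 1 and 3 and 4.75% in replicate 2, where CTHT_0042130 gave 31.3%. The total reads and the share of the rRNA gene in xylose replicate 2 (45747003 and 11.6%) were close to those of replicate 1 (45274924 and 13.3%).

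The reference libraries had a pattern of their own. Reference replicate 2 was the highest reference library of 5 genes, all but CTHT_0047500, and replicate 3 was the lowest of XYL, CTHT_0042130 and CTHT_0039870. The summed level of 88.9 CPM in replicate 2 against 41.4 CPM in replicate 3 is a wider range than in glucose, where the 3 sums had a mean of 45.7 ± 1.84 CPM (SD, n = 3).

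**Figure D3:**
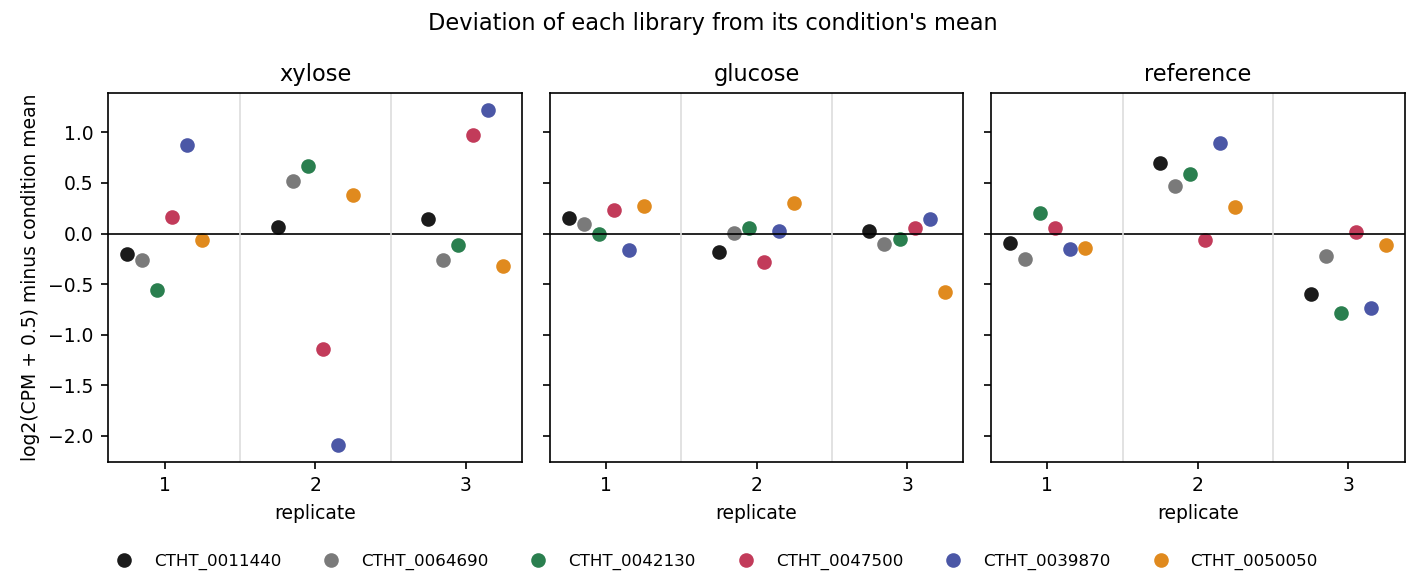
Deviation of each library from the mean of its condition for the 6 genes, as a difference of log2(CPM + 0.5); panels are xylose, glucose and reference, and each point is 1 gene in 1 library. In xylose replicate 2 the point of CTHT_0039870 lies lowest and that of CTHT_0042130 highest, whereas in glucose the point farthest from 0 is that of CTHT_0050050 in replicate 3 (-0.58).

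Of other genes related to xylan and xylose, some were called higher in xylose and some lower. A list of 10 other genes was compared, 8 for enzymes and 2 for regulators, part of which the study had itself selected on these libraries, so that their direction is not independent evidence. Against the reference, 5 of the 10 were higher in xylose, 4 were lower and 1 was not called, with a median log2-fold change of 0.43 (32.3% and 32.4% of all genes tested were higher and lower). Among the 8 enzyme genes 5 were higher and 2 were lower, with a median of 1.44. Against glucose, 5 were higher in xylose, 2 were lower and 3 were not called, with a median of 1.39, where 28.2% of all genes tested were higher and 22.6% lower, with a median of 0.16. In glucose against the reference, 2 were higher, 4 were lower and 4 were not called, with a median of -0.87, where 24% and 25.4% of all genes tested were higher and lower.

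The D-xylose reductase gene CTHT_0056950, for the enzyme that reduces xylose to xylitol, exceeded every hemicellulase in its increase over the reference. It averaged 1638 ± 428 CPM in xylose, 165 ± 24.1 CPM in glucose and 9.62 ± 4.34 CPM in the reference (SD, n = 3 each). Its log2-fold change was 7.41 ± 0.52 in xylose and 4.10 ± 0.44 in glucose (edgeR adjusted p = 3.24e-06 and 7.53e-05), and it was thus called higher in glucose too, where no hemicellulase was. CTHT_0073860 is the xylitol dehydrogenase gene, for the next step. Its mean level was 482 CPM in xylose, 14.1 CPM in glucose and 183 CPM in the reference (n = 3 each). It rose in xylose by 1.40 ± 0.30 over the reference on the log2 scale (edgeR adjusted p = 0.00163). In glucose it was lower than in the reference, by -3.70 ± 0.33 (edgeR adjusted p = 2.37e-05). The difference between xylose and glucose was 5.10 ± 0.35 (edgeR adjusted p = 2.31e-05). On the log2 scale more of it lay below the reference than above, while in mean CPM the step from reference to xylose was the larger.

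A further endo-1,4-beta-xylanase, CTHT_0049750, went the other way from those 5 hemicellulase genes. It averaged 12.9 ± 6.32 CPM in xylose, 42.0 ± 4.76 CPM in glucose and 66.3 ± 13.5 CPM in the reference (SD, n = 3 each). Its log2-fold change was -2.36 ± 0.34 in xylose against the reference and -1.71 ± 0.33 in xylose against glucose (edgeR adjusted p = 0.000120 and 0.00147). The 3 genes assigned to acetylxylan esterase, which removes acetyl groups from the xylan backbone, were split. CTHT_0050130 averaged 74.8 ± 33.4 CPM in xylose, 8.50 ± 1.18 CPM in glucose and 26.6 ± 7.98 CPM in the reference (SD, n = 3 each). Relative to the reference it was higher in xylose, by 1.49 ± 0.33 on the log2 scale, and lower in glucose, by -1.65 ± 0.33 (edgeR adjusted p = 0.00215 and 0.00241). CTHT_0019650 was lower under both sugars, with log2-fold changes of -3.30 ± 0.58 in xylose and -4.32 ± 0.62 in glucose (edgeR adjusted p = 0.000472 and 0.000333), and CTHT_0055310 was called in no comparison.

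Genes assigned to regulators also differed between the conditions. CTHT_0038840, assigned to XlnR, which in Aspergillus activates xylanase genes, averaged 63.7 ± 30.5 CPM in xylose, 20.9 ± 5.66 CPM in glucose and 173 ± 40.1 CPM in the reference (SD, n = 3 each). Its transcript was lower than in the reference under both sugars, with log2-fold changes of -1.45 ± 0.36 in xylose and -3.05 ± 0.39 in glucose (edgeR adjusted p = 0.00455 and 0.000158), and was higher in xylose than in glucose by 1.61 ± 0.37 (edgeR adjusted p = 0.00370). CTHT_0038780 resembles MIG1, a repressor of genes in the presence of glucose in yeast. It averaged 70.0 ± 3.97 CPM in xylose, 339 ± 17.4 CPM in glucose and 168 ± 78.9 CPM in the reference (SD, n = 3 each). It was lower in xylose than in the reference by a log2-fold change of -1.26 ± 0.33 and lower than in glucose by -2.28 ± 0.35 (edgeR adjusted p = 0.00621 and 0.000338). Its increase in glucose over the reference, 1.01 ± 0.33 (edgeR adjusted p = 0.0263), was no longer called without glucose replicate 2, without reference replicate 3 or with scaling by total counts, with or without the rRNA gene (0.75 to 0.98 in these fits).

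Genes for cellulose, the other large polymer of plant walls, were compared in the same way. Of a list of 8 such genes and 1 for an endo-1,4-beta-mannosidase, which acts on mannan, again partly taken from lists selected on these libraries, xylose raised 1 over the reference, lowered 4 and left 4 without a call. Over all genes tested, 32.3% were higher and 32.4% lower, so that nothing particular to the cellulose genes is read from these counts. The median log2-fold change of the 9 was -1.33, and that of the 8 without the mannosidase, of which 3 were lower, was -1.17. The gene that rose, CTHT_0003950, is annotated as a cellulose-binding protein, with a log2-fold change of 2.09 ± 0.50 (edgeR adjusted p = 0.00320), which was 1.25 without xylose replicate 2, its highest library (edgeR adjusted p = 0.00961). Among those that fell were CTHT_0022130 and CTHT_0000930, assigned to lytic cellulose monooxygenase, an enzyme that oxidises cellulose chains, with log2-fold changes of -3.52 ± 0.40 and -1.94 ± 0.31 (edgeR adjusted p = 2.73e-05 and 0.000268). The other lower genes, CTHT_0060530 (-1.46 ± 0.54) and the mannosidase CTHT_0011220 (-1.54 ± 0.58), lost their calls without xylose replicate 1 or 3 or glucose replicate 1. The call of CTHT_0060530 was also lost without reference replicate 3 (-0.93), and that of CTHT_0011220 without glucose replicate 2 or 3 or reference replicate 2 (-0.94). In glucose against the reference, 8 of the 9 were lower (7 of the 8 without the mannosidase), with a median of -1.78, where 25.4% of all genes tested were lower. The glucose calls of CTHT_0060530, CTHT_0007770 and CTHT_0011220 among them were lost without glucose replicate 1 or 2, and each also without a reference library. In xylose against glucose, 2 of the 9 were higher, 1 was lower and 6 were not called, where 28.2% of all genes tested were higher and 22.6% lower. CTHT_0003950 was 31.3-fold higher than in glucose (log2-fold change 4.97 ± 0.58, edgeR adjusted p = 9.09e-05), at place 5 of the genes tested and thus between XYL and CTHT_0064690. The cellobiohydrolase gene CTHT_0042000 was 3.97-fold higher than in glucose (edgeR adjusted p = 0.0117). Relative to the reference, CTHT_0042000 was not called in xylose (log2-fold change -0.65, edgeR adjusted p = 0.306). Glucose lowered both genes relative to the reference, CTHT_0003950 by -2.87 and CTHT_0042000 by -2.64 on the log2 scale (edgeR adjusted p = 0.00157 and 0.00341).

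**Figure D4:**
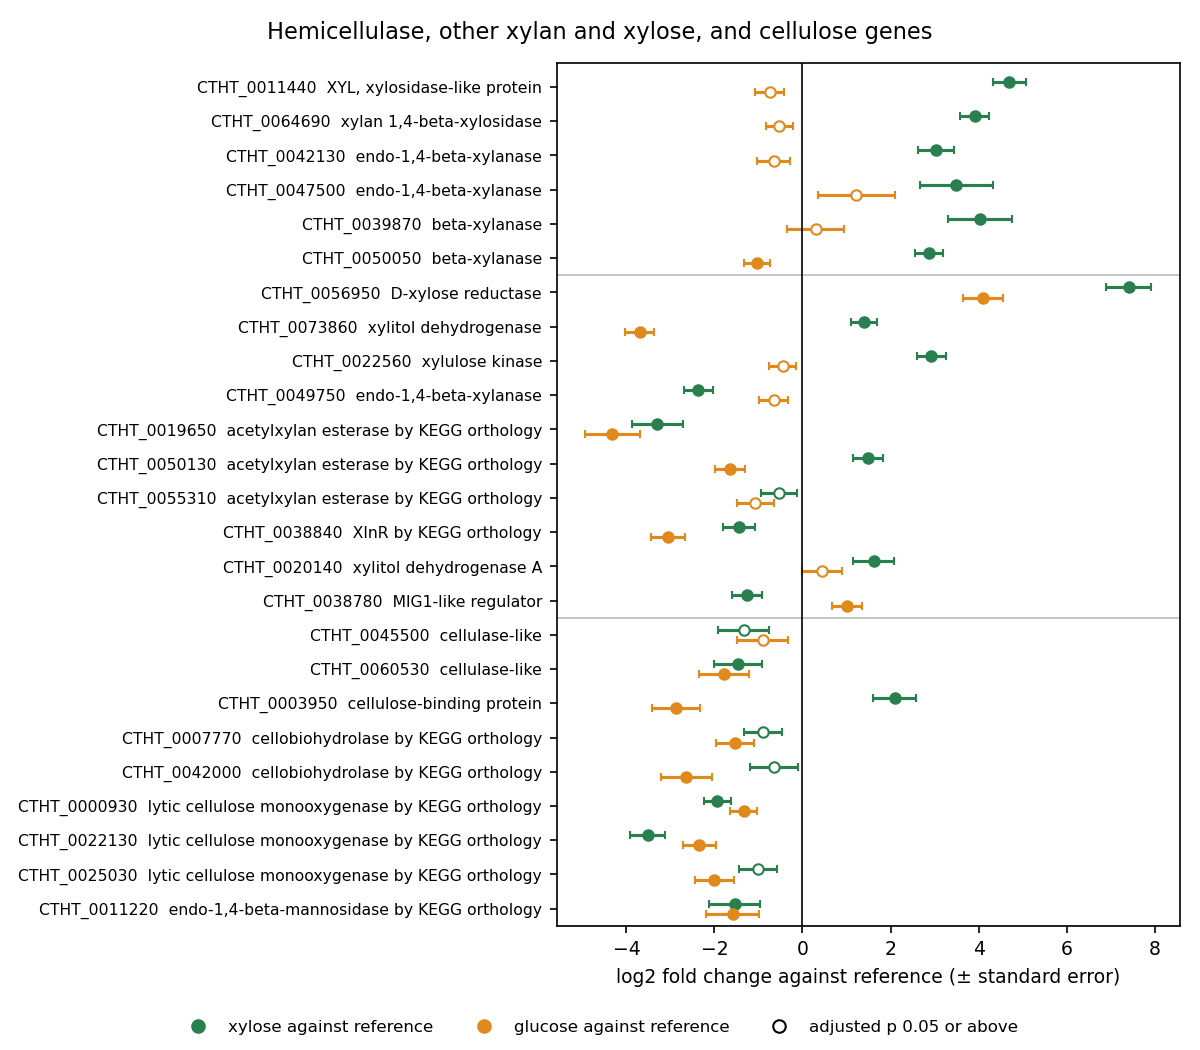
Log2-fold change against the reference, with bars of 1 standard error, for the 6 hemicellulase genes (top block), 8 other enzyme genes of xylan and xylose use with 2 regulators (middle block) and 8 genes of cellulose use with 1 mannosidase (bottom block); green is xylose, orange is glucose, and open symbols mark an adjusted p of 0.05 or above. In xylose, 5 hemicellulases lie at 2.88 or above, and CTHT_0047500 (3.49) passed the filter only through libraries in which it is high. In each other block 4 genes were called lower in xylose, where 32.4% of all genes tested were lower.

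The genes next to the hemicellulases on the chromosome were examined, since the hemicellulases lie at 6 separate places and none neighbours another. Of 12 neighbours, in the gene order of the RefSeq annotation, 10 passed the filter on low counts. Against the reference, 2 of the 10 were higher in xylose and 4 were lower, where 32.3% of all genes tested were higher and 32.4% lower, so that nothing particular to the neighbours is read from these counts. Against glucose, 3 were higher and 4 were lower, where 28.2% of all genes tested were higher and 22.6% lower, and nothing is read from these counts either. The neighbours that rose were CTHT_0064680, beside the xylosidase CTHT_0064690, and CTHT_0050040, beside the beta-xylanase CTHT_0050050. CTHT_0064680 averaged 39.2 ± 10.1 CPM in xylose, 8.41 ± 2.05 CPM in glucose and 15.5 ± 3.59 CPM in the reference (SD, n = 3 each). Its log2-fold change was 1.33 ± 0.30 in xylose against the reference and 2.22 ± 0.31 against glucose (edgeR adjusted p = 0.00229 and 0.000214). CTHT_0050040 averaged 2.92 ± 1.62 CPM in xylose, 0.274 ± 0.0489 CPM in glucose and 0.592 ± 0.248 CPM in the reference (SD, n = 3 each), with log2-fold changes of 2.30 ± 0.52 and 3.42 ± 0.56 in xylose against the reference and against glucose (edgeR adjusted p = 0.00230 and 0.000505).

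The gene that follows XYL, CTHT_0011450, was lower in xylose, at 25.2 ± 3.60 CPM against 163 ± 22.4 CPM in the reference (SD, n = 3 each). Its log2-fold change was -2.69 ± 0.30 (edgeR adjusted p = 2.61e-05). The endoxylanase CTHT_0047500 lies between CTHT_0047490 and CTHT_0047510, which both fell in xylose relative to the reference, by log2-fold changes of -2.15 ± 0.53 and -2.29 ± 0.52 (edgeR adjusted p = 0.00417 and 0.00253). CTHT_0050060, on the far side of CTHT_0050050, was lower in xylose by a log2-fold change of -2.57 ± 0.88 (edgeR adjusted p = 0.0231), but not without reference replicate 2 (-1.41, edgeR adjusted p = 0.129). Against glucose the same gene was higher in xylose (2.97 ± 0.94, edgeR adjusted p = 0.0212), a call lost without xylose replicate 1 or 3 or glucose replicate 1 or 3 (2.501 to 2.98). Beside the beta-xylanase CTHT_0039870 lies CTHT_0039860, which responded to glucose. It averaged 431 ± 299 CPM in xylose, 8049 ± 2579 CPM in glucose and 245 ± 230 CPM in the reference (SD, n = 3 each). The difference of xylose from glucose was -4.22 ± 0.84 on the log2 scale (edgeR adjusted p = 0.00172). CTHT_0042140, beside the endoxylanase CTHT_0042130, was likewise lower in xylose than in glucose (-1.99 ± 0.24, edgeR adjusted p = 0.000113). How reads in overlapping genes were counted is not stated, and the part of shared reads in these values was not tested.

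**Figure D5:**
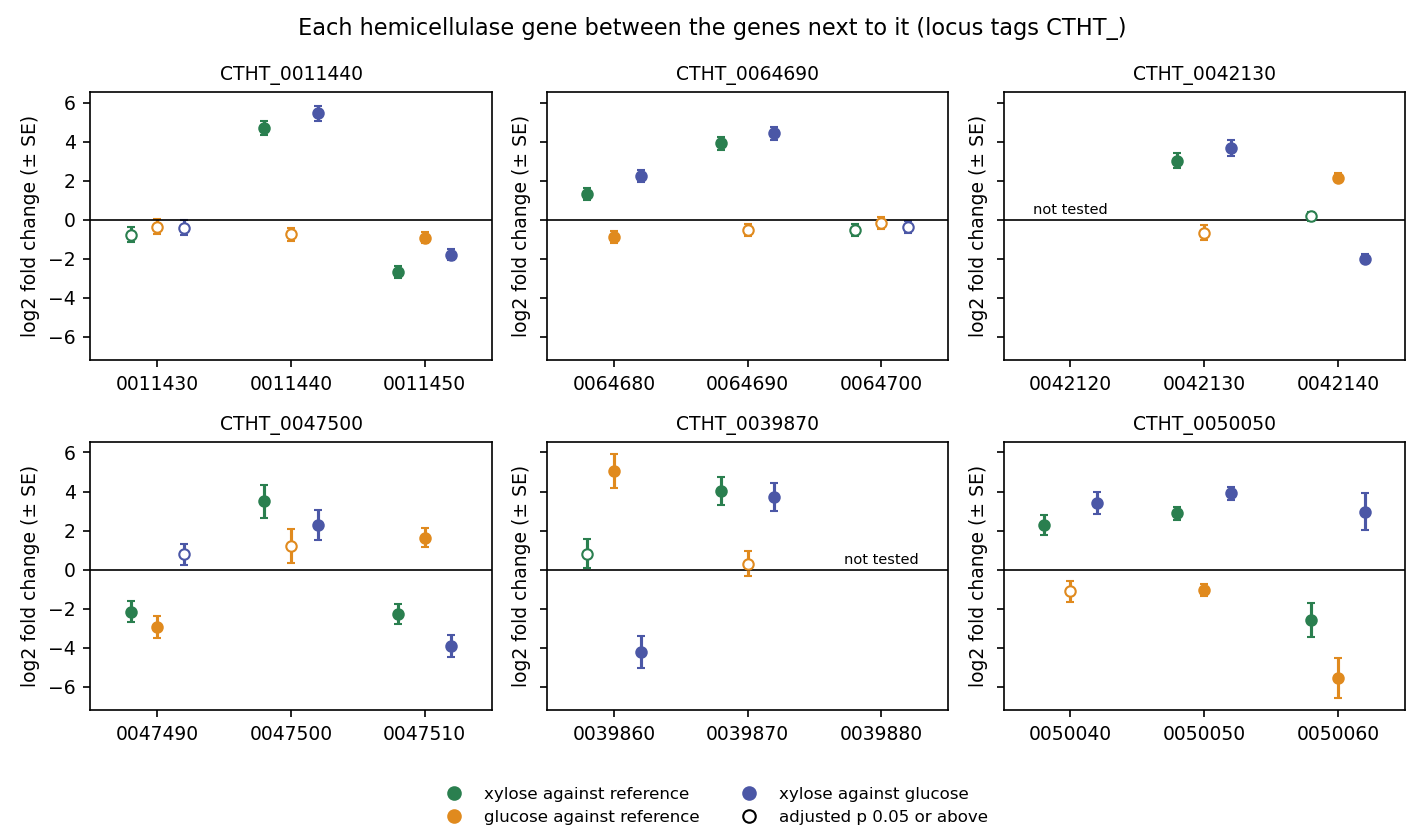
Log2-fold change, with bars of 1 standard error, of each hemicellulase gene (centre of each panel) and of the genes before and after it in locus tag order, in the 3 comparisons; open symbols mark an adjusted p of 0.05 or above. Against the reference, a neighbour was called higher in xylose at CTHT_0064690 and CTHT_0050050 and lower at XYL, CTHT_0047500 and CTHT_0050050, and against glucose CTHT_0042140 (-1.99) and CTHT_0039860 (-4.22) were among the 4 lower neighbours and CTHT_0050060 (2.97) among the 3 higher.

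For each hemicellulase, the 3 other genes with the highest Pearson's r of log2(CPM + 0.5) over the 9 libraries were identified. These libraries share their conditions, so that r mainly reflects the distance of xylose from the others. For XYL they were CTHT_0023660 (r = 0.988), the xylulose kinase gene CTHT_0022560 (r = 0.988) and CTHT_0034460 (r = 0.985). The kinase, which phosphorylates xylulose in the breakdown of xylose, was also among the 3 for CTHT_0064690 (r = 0.985) and CTHT_0042130 (r = 0.989). It was at 280, 543 and 444 CPM in xylose, 39.5, 34.0 and 47.7 CPM in glucose and 60.6, 65.1 and 40.4 CPM in the reference. By Spearman's rho the kinase gene stood at place 15 for XYL (0.93), at place 244 for CTHT_0064690 (0.85) and at place 73 for CTHT_0042130 (0.85). The closest gene to CTHT_0042130 was CTHT_0055800 (r = 0.989), annotated as a subunit of mitochondrial isocitrate dehydrogenase, and the closest to CTHT_0050050 was CTHT_0027620 (r = 0.989).

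The xylanases with a low xylose replicate 2 had other genes closest to them. For CTHT_0039870 these were CTHT_0038510 (r = 0.983), CTHT_0037700 (r = 0.981) and CTHT_0068380 (r = 0.977), and for CTHT_0047500 they were CTHT_0021930 (r = 0.968), CTHT_0014310 (r = 0.947) and CTHT_0031710 (r = 0.942). Among the hemicellulases themselves, XYL and CTHT_0064690 were each closest to one another by Pearson's r, at r = 0.992 (place 1 of 6903 genes for XYL). By Spearman's rho they reached 0.82, whereas CTHT_0064690 reached 0.98 with CTHT_0050050 and XYL reached 0.88 with CTHT_0042130. CTHT_0047500 and CTHT_0039870 reached r = 0.911 with each other, whereas their r with XYL was 0.693 and 0.856. By Spearman's rho they reached 0.57 with each other and 0.52 and 0.78 with XYL. By this measure CTHT_0039870 was thus closer to XYL than to CTHT_0047500.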

How the data were processed

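Poly(A) RNA of 9 cultures was sequenced as single-end reads from directional libraries. The authors aligned them with TopHat2 and used summarizeOverlaps to obtain a read count per gene and library, and the counts were deposited raw. The treatment of multi-mapping and overlapping reads and the strand setting are not given in the sources used here. Groups were taken from the sample labels.

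The tests used edgeR 4.0.16 under R 4.3.3 (filterByExpr with a minimum count of 10, TMM, quasi-likelihood test, Benjamini-Hochberg adjustment over 6904 genes, threshold 0.05). The standard error is the log2-fold change divided by the square root of F. DESeq2 1.42.0, other scalings and filters, a replicate block and the omission of each library were tried as alternatives. The procedure was also run on simulated data in which far fewer genes changed than in these libraries, and no result here rests on that run. No replicates agreed within sampling noise. Total counts of 38806913 to 52229013 set the precision, and Poisson intervals cover counting error only.

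The genes, lists and tests were chosen with earlier results of these data known. The genes named are the 6 hemicellulases, the genes of both lists, the neighbours, and the 3 genes closest to each hemicellulase by Pearson's r. Of the 7785 locus tags, 7472 matched RefSeq, which was used for gene order only. Planned steps that order levels per gene length, or extend the xylan list by product name, were left out because gene lengths of the authors' build and product names for the whole table were not used here. No sequences are shown.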

Additional observations from a re-analysis of the deposited data

How the results depend on the processing

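Of 373 values of log2-fold change under alternative settings for the 6 genes, 359 kept their direction and their side of the threshold, among them the 124 of xylose against the reference (19 for CTHT_0047500 and 21 for each other gene). In glucose against the reference, leaving out single libraries gave XYL -1.01 to -0.27, CTHT_0042130 -0.96 to -0.32, CTHT_0050050 -1.18 to -0.78 and CTHT_0039870 -0.01 to 0.92. The lowest values of XYL and CTHT_0042130, without reference replicate 3, passed the threshold, as did XYL at -0.92 (edgeR adjusted p = 0.0287) with scaling by total counts without the rRNA gene, an alternative chosen after seeing the data. The sign of CTHT_0039870 turned without reference replicate 3 (-0.013). In xylose against glucose, CTHT_0047500 ranged from 1.40 to 2.78 without single libraries and was not called at 2.13 when only these conditions were fitted (edgeR adjusted p = 0.0577). At a threshold of 0.01, the values -1.03 of CTHT_0050050 (glucose against reference) and 2.27 of CTHT_0047500 (xylose against glucose) were not called, and the count of genes called in glucose against the reference was 2161 in place of 3416. These causes were not tested, except that a stricter threshold calls fewer genes by construction. CTHT_0047500 could not be fitted with at least 10 counts in every library, nor on the reference libraries with only xylose or only glucose, since the filter then removes it.

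Same-numbered libraries were not treated as pairs in the main fit. Their deviations correlated at -0.304 to 0.310, with 3 of 9 pairs over 0.1. All 3 were between libraries numbered 1: xylose with glucose (0.186), xylose with reference (0.227) and glucose with reference (0.310). A differently numbered pair, xylose replicate 3 with reference replicate 2, reached 0.303. Whether same-numbered cultures shared an origin was not tested. With the replicate number as a block, 4399, 3343 and 3374 genes were called in xylose against reference, glucose against reference and xylose against glucose (4463, 3416 and 3504 without), and no call of the 6 genes changed. Depth limits CTHT_0047500 above all, with 4 to 21 reads in the glucose and reference libraries.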
